A study of Canis lupus familiaris with 8 samples.

Results

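Genes whose symbol is ZNF followed by a number, with or without a closing letter, numbered 250 among the 12824 genes measured in dog retina. They were taken by that spelling, and no measured value decided which genes belong. The family itself was chosen with earlier results of these data known. Such symbols name zinc finger genes that mostly carry no family name of their own. Bulk RNA sequencing had been done on retina of male wild-type Beagle dogs 31 weeks old, in 2 groups of 4 libraries. Retina of left eyes was fixed in paraformaldehyde (PFA-fixed), first at 4% for 3 h and then at 2% for 24 h at 4 °C. After steps of 24 h in 15% and in 30% sucrose it was frozen in embedding medium. Its RNA came from a kit made for paraffin tissue, with 18 h of proteinase K at 56 °C. Retina of right eyes was frozen in that medium without fixation (fresh-frozen), and a column kit for small amounts gave its RNA. One stranded total RNA library kit served both groups. Fixation, eye side and RNA kit thus differ together between the groups and cannot be told apart. The study's title names laser capture, and whether any of these 8 libraries were captured is not said in the labels. Nor do they say which libraries came from one dog, so p-values rest on how far these libraries vary, which may be technical in part.

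Most ZNF genes encode proteins with a row of C2H2 zinc fingers, small folds held by a zinc ion that read DNA bases and in some proteins bind RNA. In mammals the largest group adds a KRAB domain, which recruits the corepressor TRIM28 and, through it, histone methyltransferases, deacetylases and DNA methyltransferases that silence the bound locus, often a transposable element. These genes often stand side by side in clusters that grew by duplication. A smaller number, older in origin, act in neural development, in RNA metabolism or in chromatin complexes.

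All values are log2 CPM, the log2 of read counts scaled to library size by the authors. They are not divided by transcript length, so an order of levels among genes is an order of reads and not of molecules. Effective depth, estimated from the spacing of low values, was 12330000, 11040000, 15410000 and 12430000 reads in PFA-fixed replicates 1 to 4, against 21670000, 21800000, 22210000 and 22760000 reads in fresh-frozen replicates 1 to 4. A typical ZNF gene rested on about 445 reads in PFA-fixed libraries and 598 in fresh-frozen libraries, and 31 of the 250 had a mean under 100 reads in the PFA-fixed group. The identity of the tissue was plain from its rod photoreceptor genes. The 23 listed ones summed to between 49500 and 55030 CPM in PFA-fixed libraries and between 43310 and 50400 CPM in fresh-frozen libraries.

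All 250 ZNF genes reached 1 CPM in every library, so none entered the table through one group only. Together they took 1.35 ± 0.0128% of the PFA-fixed libraries and 1.19 ± 0.0313% of the fresh-frozen libraries (SD, n = 4 each). Their summed level was 14030, 14170, 14320 and 13590 CPM in PFA-fixed replicates 1 to 4, and 11200, 11860, 11330 and 11620 CPM in fresh-frozen replicates 1 to 4. Every PFA-fixed sum lay above every fresh-frozen sum. The sums carry the authors' scaling of each library, and the shares do not. The median ZNF gene stood at 5.16, 5.13, 5.08 and 5.07 log2 CPM in the 4 PFA-fixed libraries, against 4.69, 4.73, 4.76 and 4.82 in the 4 fresh-frozen libraries, again without overlap. Over all 8 libraries the median level of the ZNF genes was 4.97 log2 CPM, and that of all genes was 4.92.

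With the authors' scaling, more ZNF genes were higher than lower in PFA-fixed retina, whereas centring the libraries on rod genes turned this order round. In limma with Benjamini-Hochberg adjustment over all 12824 genes, 119 ZNF genes rose and 41 fell at an adjusted p under 0.05, and 90 were not called. Calls made up 64.0% of the ZNF genes and 68.7% of all genes. Rises were 47.6% of the ZNF genes against 33.9% of all genes, and falls were 16.4% against 34.7%. Among called ZNF genes 74.4% had risen, against 49.4% among all called genes. The median change was 0.21 on the log2 scale for ZNF genes and -0.02 for all genes, with quartiles of -0.11 and 0.63 for ZNF genes and -0.54 and 0.48 for all genes. Centred on the mean of the rod list, 53 ZNF genes rose and 103 fell, and their median was -0.18. Centred on the rod list's median, 24 rose and 130 fell, and the median was -0.41. These centrings moved the median of all genes by -0.39 and -0.62, to -0.40 and -0.63. The rod genes are no fixed point: the 23 themselves had 5 rises, 11 falls and a median of -0.12 under the first centring. Under the second they had 3 rises, 14 falls and a median of -0.35. With the authors' scaling the median change of the 23 was 0.27, smaller in size than either shift. The list's median level in PFA-fixed replicates 1, 3 and 4 was that of TULP1, a gene that rose by 2.18. In fresh-frozen libraries the median level was that of PDC, PDE6B or SLC24A1. The second shift thus depends on which rod gene stands in the middle of the list. The ZNF median was 0.23 above the median of all genes under the authors' scaling. Centring a library moves all its genes alike, so this gap is the same under both centrings by construction and is no test.

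**Figure D1:**
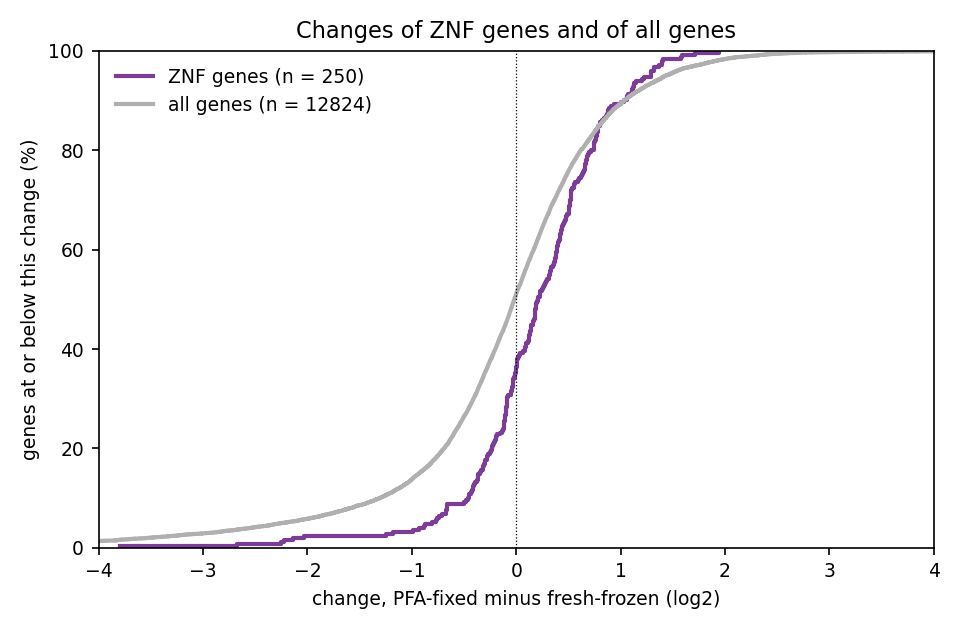
Cumulative share of genes (vertical axis, percent) at or below each change, PFA-fixed minus fresh-frozen on the log2 scale (horizontal axis), for the 250 ZNF genes and for all 12824 genes. The ZNF curve crosses 50% at 0.21 and the curve of all genes at -0.02. Centring on the mean or the median of the rod list moves the 2 curves together to the left and puts the ZNF median at -0.18 or -0.41. Genes beyond the ends of the axis are not drawn.

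Large changes were unevenly shared between the directions. Rises of at least 2-fold were called for 27 ZNF genes, or 10.8%, close to the 10.6% of all genes. Falls of at least 2-fold were called for only 8, or 3.2%, against 13.7% of all genes. Changes of under 2-fold in either direction held 215 ZNF genes (86.0%), against 75.6% of all genes. The libraries of both groups did not overlap for 157 ZNF genes, or 62.8%, and for 62.9% of all genes. In 116 of these every PFA-fixed library was higher, where 31.3% of all genes were. In the other 41 every PFA-fixed library was lower, where 31.6% of all genes were. Changes ran from -3.80 to 1.95 among ZNF genes and from -10.37 to 5.89 over the whole table. The median SD between replicates was 0.120 for ZNF genes in the PFA-fixed group and 0.141 in the fresh-frozen group, beside 0.146 and 0.159 for all genes.

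Counts also differed by level. The ZNF genes were divided into 3 parts by their mean over 8 libraries, with bounds at 4.33 and 5.53 log2 CPM. This mean includes the PFA-fixed libraries, so a fall lowers it and a rise lifts it, and the division is a description only. Of the 83 lowest, 22 rose and 21 fell, with a median of -0.02. Among the 83 in the middle 49 rose and 10 fell, with a median of 0.39. The 84 highest had 48 rises and 10 falls, with a median of 0.33. All genes within the same bounds also differed by level. Those at the low level had 26.4% rises and 37.6% falls with a median of -0.16, those in the middle 33.4% and 35.2% with a median of -0.03, and those at the high level 42.2% and 31.4% with a median of 0.08. The 8 falls of at least 2-fold were in the lowest part, which the falls themselves helped to set. ZNF503 and ZNF469 averaged 4.82 and 4.37 log2 CPM in fresh-frozen libraries, above the lower bound.

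**Figure D2:**
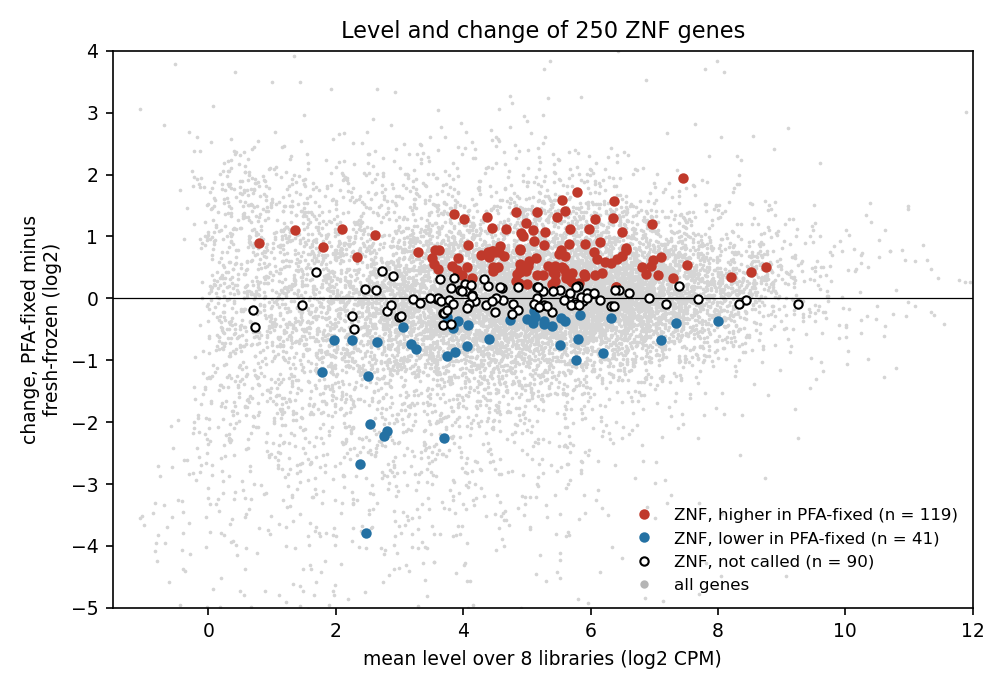
Change, PFA-fixed minus fresh-frozen (log2, vertical axis), against the mean level over 8 libraries (log2 CPM, horizontal axis), with ZNF genes coloured by call over all genes in grey. Called falls of at least 2-fold lie below 4.33 log2 CPM on this axis, which the falls themselves lower, while rises occur at all levels. Centring on the rod list moves every point down by 0.39 or 0.62, depending on whether its mean or its median is used. Genes beyond the axis ends are not drawn.

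The largest rise was that of ZNF512B, a nuclear protein in which a variant has been studied in human amyotrophic lateral sclerosis. It stood at 8.32, 8.72, 8.26 and 8.39 log2 CPM in PFA-fixed libraries, against 6.56, 6.51, 6.47 and 6.36 in fresh-frozen libraries. The groups were far apart, with a rise of 1.95 ± 0.09 (log2, SE) or 3.85-fold, at a limma adjusted p of 9.83e-09. Its relative ZNF512 rose by 0.53, to 7.27, 7.16, 7.29 and 7.16 in PFA-fixed libraries, against 6.74, 6.62, 6.68 and 6.72 in fresh-frozen libraries. ZNF597, an imprinted gene in humans, had 6.67, 6.55, 6.65 and 6.67 log2 CPM in PFA-fixed libraries and 4.63, 4.91, 5.15 and 5.03 in fresh-frozen libraries. That was a 3.27-fold rise (limma adjusted p = 5.18e-08). ZNF774 stood at 6.38, 6.20, 6.36 and 6.43 in PFA-fixed libraries, against 4.59, 4.65, 4.80 and 5.0 in fresh-frozen libraries, a 3.00-fold rise. ZNF572 had 7.11, 7.03, 7.19 and 7.30 in PFA-fixed libraries, against 5.31, 5.54, 5.54 and 5.92 in fresh-frozen libraries, a rise of 1.58 (limma adjusted p = 2.3e-07). In each of these genes the lowest PFA-fixed library was more than 1 log2 unit above the highest fresh-frozen library, apart from ZNF512, where the groups were closer but did not overlap.

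Among the next largest rises were ZNF41, an X-linked KRAB zinc finger gene in humans, and ZNF830, found in human spliceosomes. ZNF41 had 6.25, 6.24, 6.28 and 6.41 log2 CPM in PFA-fixed libraries and 4.89, 4.89, 4.73 and 5.07 in fresh-frozen libraries. ZNF830 had 5.79, 6.09, 5.83 and 5.75 in PFA-fixed libraries and 4.44, 4.44, 4.5 and 4.46 in fresh-frozen libraries. Both rose by 1.40. ZNF554, ZNF789 and ZNF660 rose by 1.39, 1.32 and 1.32 (limma adjusted p = 2.86e-06, 4.71e-06 and 8.54e-08). All 10 largest rises, one of which is described with the eye genes, kept their call and sign under every alternative in which the gene was tested. The spans of 4 of them, ZNF512B, ZNF41, ZNF554 and ZNF660, overlap another gene in the reference annotation, and with the authors' strand setting not given in the sources used here, reads of such partners cannot be told apart.

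**Figure D3:**
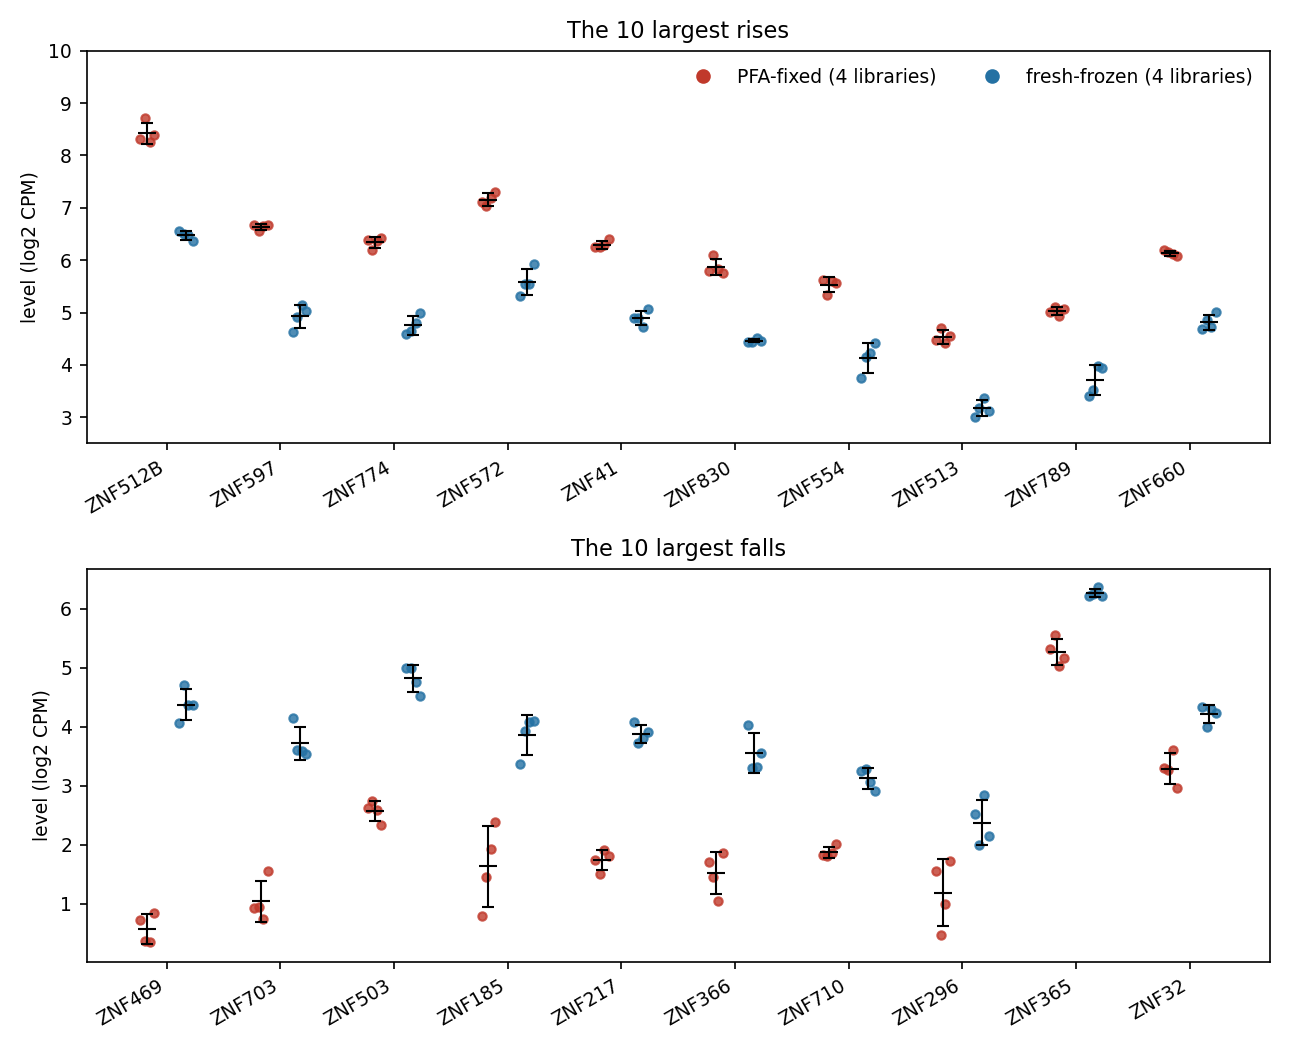
Level in log2 CPM of each library for the 10 largest called rises (upper panel) and the 10 largest called falls (lower panel) among ZNF genes. Points are libraries, 4 PFA-fixed left of 4 fresh-frozen for each gene. The groups do not overlap for any of the 20 genes, which were chosen with that as a condition, and the widest gap between group means is that of ZNF469, at -3.80 log2 units.

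The 10 largest falls were of genes with fresh-frozen means between 2.38 log2 CPM (ZNF296) and 6.26 (ZNF365). The widest was that of ZNF469. This gene, whose loss causes brittle cornea syndrome in humans, stood at 0.73, 0.37, 0.36 and 0.85 log2 CPM in PFA-fixed libraries, against 4.06, 4.70, 4.37 and 4.37 in fresh-frozen libraries. It fell by 3.80 ± 0.19 (log2, SE), being 13.9-fold higher in fresh-frozen libraries (limma adjusted p = 1.22e-08), on 13 to 21 reads per PFA-fixed library and 358 to 564 per fresh-frozen library. ZNF703 and ZNF503 encode closely related corepressors whose zebrafish counterparts take part in closing the optic fissure. ZNF703 had 0.93, 0.95, 0.74 and 1.55 log2 CPM in PFA-fixed libraries and 4.14, 3.60, 3.60 and 3.54 in fresh-frozen libraries, a fall of 2.68 (limma adjusted p = 5.4e-07). ZNF503 had 2.62, 2.74, 2.59 and 2.33 in PFA-fixed libraries and 4.99, 5.0, 4.76 and 4.52 in fresh-frozen libraries, a fall of 2.25 (limma adjusted p = 7.57e-08). All 3 genes were separated by more than 1.5 log2 units between the nearest libraries of the groups.

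ZNF185 encodes a LIM-domain protein of the actin cytoskeleton, ZNF217 a corepressor-bound protein amplified in human cancers, and ZNF366 a regulator of dendritic cells. ZNF185 had 0.79, 1.45, 1.92 and 2.39 log2 CPM in PFA-fixed libraries, the widest spread among the 10 largest falls, against 3.37, 3.92, 4.08 and 4.09 in fresh-frozen libraries. ZNF217 had 1.75, 1.5, 1.91 and 1.80 in PFA-fixed libraries, against 4.08, 3.73, 3.81 and 3.91 in fresh-frozen libraries. ZNF366 had 1.71, 1.45, 1.04 and 1.87 in PFA-fixed libraries, against 4.04, 3.30, 3.32 and 3.55 in fresh-frozen libraries. They fell by 2.23, 2.14 and 2.03, with limma adjusted p of 4.44e-05, 1.72e-07 and 7.96e-06. ZNF710 fell by 1.25 and ZNF296 by 1.18. ZNF296 rested on only 14 to 39.8 reads per PFA-fixed library. Its values were 1.56, 0.47, 1.0 and 1.73 in PFA-fixed libraries, against 2.52, 1.99, 2.84 and 2.15 in fresh-frozen libraries (limma adjusted p = 0.00405). ZNF365, known for centrosome and replication functions in human cells, fell by 0.99, and ZNF32 fell by 0.93. The spans of ZNF217, ZNF710 and ZNF296 overlap another gene in the reference annotation.

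Markers of tissue next to the retina, and of vascular and immune cells that the retina also holds, moved the same way as these falls. The 12 markers of sclera and fibroblasts, such as collagens, all fell, and their summed level was 220.5 to 274.4 CPM in PFA-fixed libraries and 8296 to 11570 CPM in fresh-frozen libraries. DPT, one of them, was at the lowest value of the table in PFA-fixed replicates 1 and 3. All 12 markers of retinal pigment epithelium fell, with sums of 291.0 to 346.5 CPM in PFA-fixed libraries and 2286 to 3436 CPM in fresh-frozen libraries. All 12 vascular markers fell too, with sums of 534.1 to 621.1 CPM in PFA-fixed libraries and 2046 to 2795 CPM in fresh-frozen libraries. Of 8 melanocyte markers 7 fell, with sums of 98.35 to 106.3 CPM in PFA-fixed libraries and 1451 to 2219 CPM in fresh-frozen libraries, and MLANA was at the lowest value in PFA-fixed replicate 4. Among 12 microglial markers 10 fell, with sums of 40.32 to 58.06 CPM in PFA-fixed libraries and 252.2 to 403.4 CPM in fresh-frozen libraries, and TMEM119 was at the lowest value in PFA-fixed replicate 2. The part of these cells in the falls of ZNF genes was not tested. In bulk tissue, fewer cells of a type and less RNA per cell cannot be told apart. Of the 23 rod markers, 12 rose and 4 fell, with a median change of 0.27. Quantile normalization gave 8 rises, 8 falls and a median of -0.01 for them, and centring on the library median 13 rises and 0 falls. No rod gene fell without PFA-fixed replicate 1, and 1 fell without PFA-fixed replicate 2, PFA-fixed replicate 4 or fresh-frozen replicate 2.

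Of the 6 most abundant ZNF genes, 3 rose, by 0.51 or less, and 3 were not called. ZNF385A, which in the mouse binds RNA and p53, had the highest mean of all members at 9.25 log2 CPM. It stood at 9.27, 9.21, 9.33 and 9.01 in PFA-fixed libraries and 9.33, 9.42, 9.29 and 9.17 in fresh-frozen libraries. The groups overlapped and the change of -0.09 was not called (limma adjusted p = 0.319). ZNF462, mutated in a human developmental syndrome, had 9.06, 9.06, 8.98 and 8.97 in PFA-fixed libraries, all above 8.43, 8.58, 8.51 and 8.49 in fresh-frozen libraries, a rise of 0.51 (limma adjusted p = 9.4e-06). ZNF638, a nuclear RNA-binding protein, rose by 0.42 at a mean level of 8.52, and ZNF609 rose by 0.35 at a mean level of 8.20. ZNF106, an RNA-binding protein, and ZNF148, a promoter-binding factor, had changes of -0.03 and -0.09 that were not called, at mean levels of 8.44 and 8.32. Centring on the rod list's mean turned ZNF609 to -0.035, and centring on its median also turned ZNF638 to -0.19 and ZNF462 to -0.10. ZNF638 and ZNF462 had no call under the first (0.04 and 0.13). ZNF385A, ZNF106 and ZNF148 were called lower under the first (-0.48, -0.42 and -0.48) and under the second (-0.71, -0.65 and -0.71). Under quantile normalization ZNF385A and ZNF106 were called at -0.28 and -0.18.

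ZNF genes with a known part in eye disease or eye development numbered 7. Of these, 1 rose (14.3%) and 4 fell (57.1%), beside 33.9% and 34.7% of all genes, with a median change of -0.66. The rise was of ZNF513, a gene mutated in a human retinitis pigmentosa family. It had 4.47, 4.70, 4.41 and 4.56 log2 CPM in PFA-fixed libraries, against 3.01, 3.18, 3.37 and 3.12 in fresh-frozen libraries, a 2.57-fold rise (limma adjusted p = 1.04e-06) on 271 to 326 reads per PFA-fixed library and 172 to 227 per fresh-frozen library. The falls were those of ZNF469, ZNF703 and ZNF503 and that of ZNF423, a partner of EBF factors mutated in human ciliopathies. ZNF423 had 5.39, 5.46, 5.5 and 5.55 in PFA-fixed libraries, all below 6.19, 6.11, 6.12 and 6.12 in fresh-frozen libraries, a fall of 0.66 (limma adjusted p = 3.62e-06). Neither ZNF408, mutated in human retinitis pigmentosa and vitreoretinopathy, nor ZNF644, linked to high myopia in humans, was called, with changes of 0.17 and -0.01. ZNF408 ranged from 3.53 to 4.15 in PFA-fixed libraries and from 3.14 to 4.03 in fresh-frozen libraries, which overlapped, and its change was -0.02 without fresh-frozen replicate 4. That of ZNF644 was 0.07 without PFA-fixed replicate 4 and 0.08 without fresh-frozen replicate 2.

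Of 19 listed ZNF genes with a part in neural development or intellectual disability 16 were measured. Of these, 10 rose (62.5%) and 2 fell (12.5%), beside 47.6% and 16.4% of all ZNF genes and 33.9% and 34.7% of all genes. The list's median change was 0.39, and 0.01 or -0.22 when centred on the mean or the median of the rod list. Besides ZNF41, the largest rise was that of ZNF335, a nuclear protein whose loss causes human microcephaly. It had 7.09, 7.21, 6.93 and 6.88 log2 CPM in PFA-fixed libraries and 5.99, 5.80, 6.09 and 5.97 in fresh-frozen libraries, a rise of 1.07 (limma adjusted p = 6.71e-07). ZNF699, ZNF407, ZNF711 and ZNF536 rose by 0.76, 0.54, 0.51 and 0.41, and ZNF24, needed for myelination in the mouse, and ZNF292, mutated in human intellectual disability, by 0.38 and 0.34. The rise of ZNF81 was 0.23 (limma adjusted p = 0.0242), and it lost its call without PFA-fixed replicate 1, 2 or 4 (0.22, 0.21 and 0.20) or without fresh-frozen replicate 3 (0.20). ZNF521, a regulator of progenitors in the nervous system and blood, went the other way. It had 5.76, 5.64, 5.71 and 5.86 in PFA-fixed libraries, all below 6.5, 6.56, 6.7 and 6.75 in fresh-frozen libraries, a fall of 0.89 (limma adjusted p = 1.15e-06). ZNF365 had 5.32, 5.55, 5.03 and 5.17 in PFA-fixed libraries, all below 6.22, 6.24, 6.37 and 6.21 in fresh-frozen libraries. Not called were ZNF488, an oligodendrocyte regulator, ZNF804B, ZNF148 and ZNF526, at 0.42, 0.06, -0.09 and -0.09. Without fresh-frozen replicate 2, the change of ZNF488 was called at 0.57. ZNF148 was at 0.03 without PFA-fixed replicate 4, and ZNF804B was at -0.09 without PFA-fixed replicate 4 and at -0.08 without fresh-frozen replicate 1. Of 9 oligodendrocyte markers 5 fell, 1 rose (OLIG2, by 0.99) and 3 were not called. Their sum was 59.91 to 67.0 CPM in PFA-fixed libraries. It was 1104 CPM in fresh-frozen replicate 1 and 260.1 to 334.0 CPM in the other fresh-frozen libraries. The part of oligodendrocytes in the values of these ZNF genes was not tested.

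**Figure D4:**
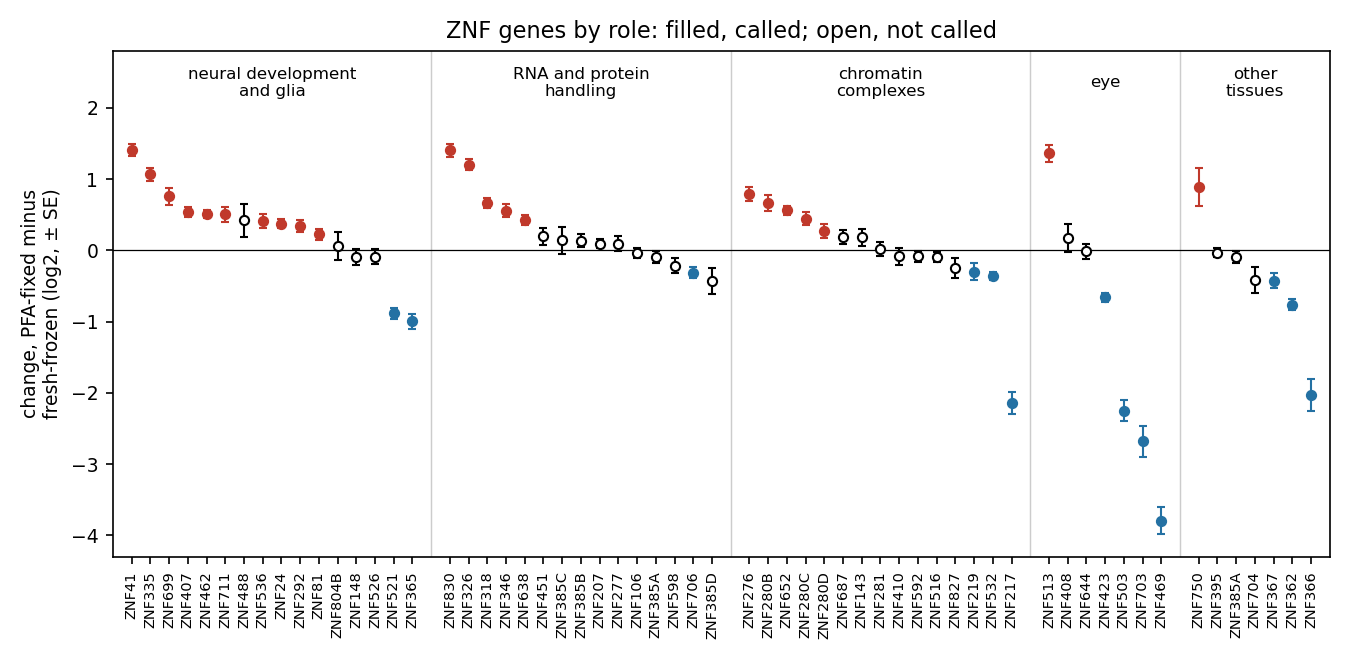
Change of each measured ZNF gene of the role lists, PFA-fixed minus fresh-frozen on the log2 scale (vertical axis), with bars of 1 SE from limma on 4 libraries a group. Filled points passed an adjusted p of 0.05 and open points did not. Calls in the neural list are 10 rises (62.5%) and 2 falls (12.5%), and in the eye list 1 rise (14.3%) and 4 falls (57.1%). Of all ZNF genes 47.6% rose and 16.4% fell, and of all genes 33.9% and 34.7%. Centring on the mean or the median of the rod list lowers every point by 0.39 or 0.62, which puts the median of the neural list at 0.01 or -0.22.

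ZNF genes that act on RNA or protein gave 5 rises and 1 fall among 15 measured of 17 listed. That is 33.3% rises, near the 33.9% of all genes, with 40% of the list called against 68.7% of all genes. The median change of 0.14 turned to -0.25 or -0.48 when centred on the mean or the median of the rod list. ZNF326, part of a complex that couples transcription to splicing in human cells, had 7.58, 7.71, 7.51 and 7.43 log2 CPM in PFA-fixed libraries and 6.37, 6.30, 6.27 and 6.48 in fresh-frozen libraries. Its rise of 1.20 (limma adjusted p = 7.31e-08) was next to that of ZNF830 in this list. ZNF318 rose by 0.67 and ZNF346, which binds double-stranded RNA, by 0.55. The fall was that of ZNF706, by 0.31. ZNF598, the ubiquitin ligase that marks collided ribosomes, had a change of -0.22 and ZNF207, a kinetochore protein that binds BUB3, one of 0.09, neither called. ZNF207 was called at 0.17 when centred on the library median, and ZNF598 at -0.60 or -0.83 when centred on the rod list's mean or median. ZNF277 was at 0.09 and ZNF451, a SUMO ligase, at 0.20, also without a call, although ZNF451 was called at 0.30 without fresh-frozen replicate 2. The 4 members of the ZNF385 family, which bind RNA, were not called, with changes of -0.09 for ZNF385A, 0.14 for ZNF385B, 0.14 for ZNF385C and -0.43 for ZNF385D. ZNF385B was called at 0.21 without fresh-frozen replicate 2, and ZNF385D at -0.55 without PFA-fixed replicate 4 or without fresh-frozen replicate 1. ZNF106 was at 0.02 without fresh-frozen replicate 2.

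Those in chromatin and transcription complexes were split, with 5 rises (33.3%) and 3 falls (20%) among 15, beside 33.9% and 34.7% of all genes. The median of the list was 0.02, which rod centring turned to -0.37 or -0.60 by mean or median. Apart from ZNF217, falls were called for ZNF532 (-0.37, limma adjusted p = 0.000111) and for ZNF219 (-0.30, limma adjusted p = 0.0462). ZNF532 forms one module with ZNF592 and ZNF687 in human cells, and these were not called, at -0.09 and 0.19. ZNF687 was called at 0.24 without PFA-fixed replicate 3. The call of ZNF219 ended without PFA-fixed replicate 1 or 4 (-0.23 and -0.27), without fresh-frozen replicate 1, 2 or 3 (-0.28, -0.29 and -0.28) and under quantile normalization (-0.08) or centring on the library median (-0.22). ZNF276 rose by 0.79, ZNF652 by 0.56, and the related ZNF280B, ZNF280C and ZNF280D by 0.67, 0.44 and 0.27. The call of ZNF280D (limma adjusted p = 0.0333) ended without PFA-fixed replicate 1 or 2 (0.21 and 0.22), fresh-frozen replicate 1, 2 or 3 (0.25, 0.25 and 0.26) and without the trend (limma adjusted p = 0.0555). ZNF143, a factor bound at many promoters, and ZNF410, an activator of CHD4, were at 0.18 and -0.09 without a call. The other members of this list without a call were ZNF281, ZNF516 and ZNF827, at 0.02, -0.09 and -0.25. ZNF827 was called at -0.35 without fresh-frozen replicate 1, and ZNF281 turned to between -0.03 and -0.02 without PFA-fixed replicate 2 or 3 or fresh-frozen replicate 4.

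A list of ZNF genes studied mainly outside the nervous system had 7 measured of 8. It had 1 rise (14.3%) and 3 falls (42.9%), beside 33.9% and 34.7% of all genes, and a median change of -0.41. The rise was of ZNF750, a regulator of epidermal differentiation, at 1.30, 0.64, 1.60 and 1.38 log2 CPM in PFA-fixed libraries and 0.45, 0.28, 0.31 and 0.33 in fresh-frozen libraries. All its values were low, and the change of 0.89 (limma adjusted p = 0.0104) was called with no overlap between the groups. ZNF366, ZNF362 and ZNF367 fell by 2.03, 0.76 and 0.43, the last without a call under quantile normalization (-0.24). ZNF395 and ZNF704 were at -0.03 and -0.41 without a call, and ZNF704 was called at -0.60 without PFA-fixed replicate 4 and at -0.49 without fresh-frozen replicate 2.

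Of 37 listed genes of the corepressor machinery that KRAB zinc finger proteins use, 32 were measured, and 12 rose and 8 fell. These are 37.5% and 25%, beside 33.9% and 34.7% of all genes, with a median change of 0.10 that rod centring turned to -0.28 or -0.51 by mean or median. TRIM28, the scaffold that KRAB domains bind, had 6.59, 6.72, 6.61 and 6.68 log2 CPM in PFA-fixed libraries, all below 7.24, 7.07, 7.18 and 6.95 in fresh-frozen libraries. It fell by 0.46 ± 0.07 (log2, SE; limma adjusted p = 0.000161), while the ZNF median was 0.21. SETDB1, the histone H3 lysine methyltransferase that TRIM28 recruits, had 6.20, 6.16, 6.14 and 6.11 in PFA-fixed libraries, all above 5.88, 5.79, 5.93 and 5.92 in fresh-frozen libraries. Its rise of 0.27 (limma adjusted p = 0.00284) turned to -0.12 or -0.35 when centred on the mean or the median of the rod list. DNMT3A and DNMT3B, which set new DNA methylation, rose by 1.42 and 0.87 (limma adjusted p = 2.05e-07 and 0.00025). DNMT3B lost its call when centred on the rod list's median (0.25, limma adjusted p = 0.269) and in the test against 1.5-fold (limma adjusted p = 0.133). DNMT3A had 7.37, 7.82, 7.29 and 7.52 in PFA-fixed libraries, more than 1 log2 unit above 6.01, 6.08, 6.09 and 6.12 in fresh-frozen libraries. The falls of largest size were of ATF7IP2, a SETDB1 partner, and UHRF1, which brings the maintenance methyltransferase to replicated DNA. ATF7IP2 fell by 2.06 (limma adjusted p = 0.000795), on 1.22 to 5.45 reads per PFA-fixed library. So near the floor the size depended on the processing, at -1.31 under quantile normalization and -0.82 with 1 CPM added. The fall of UHRF1 was 0.61 (limma adjusted p = 0.0432), and it lost its call without PFA-fixed replicate 1, 3 or 4 (-0.61, -0.56 and -0.48), without fresh-frozen replicate 1, 2 or 3 (-0.63, -0.56 and -0.54), under quantile normalization (-0.25) and under centring on the library median (-0.53).

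Families of zinc finger genes with other symbols were counted in the same fit, with no test between families. Over all genes 33.9% rose and 34.7% fell. ZFP genes numbered 14, with 7 rises (50%), 2 falls (14.3%) and a median of 0.29. Among 16 ZSCAN and ZKSCAN genes, whose proteins carry a SCAN dimerization domain, 10 rose (62.5%) and 1 fell (6.25%), with a median of 0.33. ZBTB genes, whose proteins carry a BTB domain, numbered 38, with 14 rises (36.8%), 10 falls (26.3%) and a median of 0.00, so that the share of rises was near that of all genes. Centred on the rod list's mean, these medians were -0.10, -0.05 and -0.38, and on its median -0.33, -0.28 and -0.61.

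Neighbours in the genome were found from the gene order of the reference annotation, in which 217 of the 250 ZNF genes could be placed. A run of ZNF genes with at most 1 other gene between them was taken as a group, which gave 29 groups holding 70 genes. Of these 70, 36 rose (51.4%) and 10 fell (14.3%), beside 33.9% and 34.7% of all genes, with a median of 0.31. Among the 147 placed genes without such a neighbour 64 rose (43.5%) and 29 fell (19.7%), with a median of 0.17. The 33 genes that were not placed had 19 rises (57.6%), 2 falls (6.06%) and a median of 0.49. Centring on the rod list's mean lowers these medians by 0.39, below 0 for the first 2 classes, and centring on its median by 0.62, below 0 for all 3.

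Neighbours did not always move alike: 8 of the 29 groups held both a rise and a fall. How many such groups would arise among genes taken without regard to place was not worked out. Of the 8, the 4 groups with the widest gap are described, and their genes were chosen after their values were seen. ZNF597 rose by 1.71 while ZNF174, beside it, changed by -0.35 (limma adjusted p = 0.0206), a gap of 2.06. The fall of ZNF174 lost its call without PFA-fixed replicate 3 (-0.26) or without fresh-frozen replicate 1 (-0.27), and under quantile normalization (-0.25) or centring on the library median (-0.27). In a group of 3, ZNF32 fell by 0.93, ZNF239 rose by 0.43 and ZNF485 rose by 0.66 (limma adjusted p = 0.0222), a gap of 1.59 between highest and lowest. ZNF485 had 2.51, 2.56, 2.91 and 2.64 log2 CPM in PFA-fixed libraries and 1.78, 1.45, 2.42 and 2.33 in fresh-frozen libraries, and its call ended without PFA-fixed replicate 3 (0.58), fresh-frozen replicate 1 (0.59) or fresh-frozen replicate 2 (0.48). ZNF205 rose by 0.76, with 4.78, 5.05, 4.73 and 4.83 in PFA-fixed libraries and 4.28, 3.72, 4.12 and 4.2 in fresh-frozen libraries. Its neighbour ZNF213 fell by 0.74, with 2.57, 2.89, 2.97 and 2.79 in PFA-fixed libraries and 3.60, 3.80, 3.53 and 3.23 in fresh-frozen libraries. Centred on the rod list's mean or median, ZNF205 had no call (0.38 and 0.15). Neither gene's groups overlapped, and the gap between the changes was 1.5. In a group of 6, ZNF524, ZNF784 and ZNF581 rose by 0.83, 0.78 and 0.75, ZNF865 fell by 0.48, and ZNF579 and ZNF580 were not called, at 0.18 and -0.10. A gap between neighbours is the same under any centring of the libraries.

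**Figure D5:**
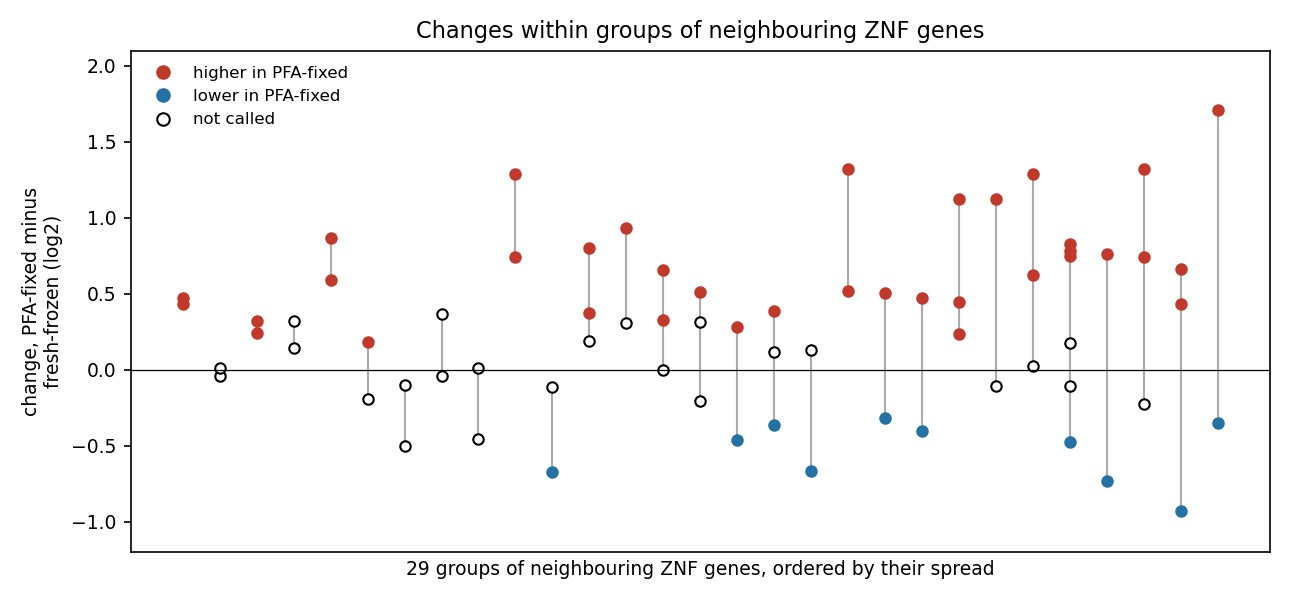
Change of each of 70 ZNF genes, PFA-fixed minus fresh-frozen (log2, vertical axis), in 29 groups of neighbouring genes set side by side and ordered by their spread. Filled points were called and open points were not. The widest gap within a group holding both calls is 2.06, between ZNF597 and ZNF174. Centring on the rod list lowers all points together and leaves the gaps as they are.

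Some ZNF genes share a number and differ by a closing letter, and those described next were picked after their values were seen. ZNF354A, ZNF354B and ZNF354C, which are KRAB zinc finger genes, rose by 1.10, 0.68 and 0.91. ZNF354A had 5.68, 5.51, 5.71 and 5.71 log2 CPM in PFA-fixed libraries, all above 4.2, 4.65, 4.5 and 4.86 in fresh-frozen libraries. ZNF354C had 6.56, 6.68, 6.6 and 6.58 in PFA-fixed libraries, all above 5.67, 5.81, 5.61 and 5.70 in fresh-frozen libraries. ZNF518A rose by 0.40, whereas ZNF518B was at -0.12 without a call. Reads of near-identical copies can be divided between genes by the counting, and this was not checked by sequence here.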

How the data were processed

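Bulk RNA sequencing of dog retina was analysed from 1 table of 8 libraries, 4 PFA-fixed and 4 fresh-frozen. Per the submitters' processing notes, the authors used kallisto 0.48.0, edgeR and limma, with no order given. The deposited values are log2 CPM, as the range and the spacing of low values show. The sources used here do not give the transcript reference, the strand setting or the filter. Every gene of the table reached 1 CPM in at least 4 libraries, and the lowest value was -3.12 log2 CPM. Between 60.4% and 67.3% of low values (20 reads or fewer) came out whole within 0.1 read, where chance gives 20%, so no count test was run and depths are estimates that cover counting error only.

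The group difference was tested with limma 3.58.1 in R 4.3.3 (empirical Bayes with trend, two-sided, group as the only term), with Benjamini-Hochberg adjustment over all 12824 genes at 0.05. The step was also run on simulated data in which few genes changed, unlike here, so that run checks the step and not these calls. Changes are PFA-fixed minus fresh-frozen. ZNF genes were taken by symbol, and 2 genes are not reported here. Members and lists were chosen with earlier results of these data known. The text names the 10 largest called rises and falls (groups not overlapping, mean of the higher one 1 log2 CPM or more), the 6 most abundant members, measured members of the role lists, TRIM28, SETDB1 and the 2 largest called rises and falls of the corepressor list, and other genes where stated. Of the members, 218 matched the gene table of assembly UU_Cfam_GSD_1.0, and 97 of the 217 placed overlap another gene there. That table also holds 46 ZNF symbols that are not analysed here. Protein sequences were not used, so classes by KRAB box, number of fingers or sequence identity were not formed. Alternatives were each library left out, a replicate block, quantile normalization, centring on the library median or on the 23 rod genes, a minimum mean of 3 log2 CPM, 1 CPM added, no trend, and a test against 1.5-fold.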

Additional observations from a re-analysis of the deposited data

Results flagged for a closer look

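In 184 groups of 4 libraries, 7 held a library standing apart from the other 3 by Dixon's test at its 95% critical value, which chance alone reaches in about 1 of 20 groups. ZNF703 was at 4.14 log2 CPM in fresh-frozen replicate 1, with the others at 3.54 to 3.60, and ZNF174 at 5.15 in the same library, with the others at 4.78 to 4.84. ZNF532 was at 8.26 in fresh-frozen replicate 3, with the others at 8.16 to 8.17. ATF7IP2 was at 0.96 in fresh-frozen replicate 2, with the others at 0.23 to 0.32. ZNF804B was at 4.62 in PFA-fixed replicate 4, with the others at 3.99 to 4.08. ZNF354A had its lowest value, 5.51, in PFA-fixed replicate 2, with the others at 5.68 to 5.71. DNMT3B was at 3.98 in PFA-fixed replicate 1, with the others at 3.80.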

How the results depend on the processing

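Leaving out 1 library gave 111 to 119 rises, 38 to 41 falls and a median change of 0.20 to 0.25 among the ZNF genes, and 10 to 13 rises and 6 or 7 falls among the corepressor genes. Deviations of same-numbered libraries correlated at 0.05, 0.15, -0.09 and 0.22, and those of other-numbered libraries at -0.27 to 0.22. The numbers were not taken as pairs because the same-numbered values were not all above 0.1. With so few libraries this cannot show whether same-numbered ones came from one dog. The replicate block gave 118 rises and 41 falls. Quantile normalization gave 133 and 34 with a median of 0.30, and the library median 135 and 37 with a median of 0.29. Centring on the rod list's mean gave 53 rises, 103 falls and a median of -0.18, with 2 rises and 16 falls of corepressor genes, and on its median 24, 130 and -0.41, with 1 and 23. The test against 1.5-fold called 32 rises and 9 falls, and 1 of each among corepressor genes. A minimum mean of 3 log2 CPM left 221 members, with 113 rises and 31 falls. Adding 1 CPM gave 119 and 41, and no trend 118 and 43. Under the rod list's mean these named genes changed sign: ZNF281 -0.37, ZNF804B -0.32, ZNF277 -0.29, ZNF207 -0.29, ZNF385B -0.25, ZNF385C -0.24, ZNF408 -0.21, ZNF143 -0.20, ZNF687 -0.20, ZNF451 -0.19, ZNF81 -0.16, ZNF280D -0.12, SETDB1 -0.12, ZNF292 -0.049, ZNF609 -0.035 and ZNF24 -0.011. Under its median they were ZNF281 -0.60, ZNF804B -0.56, ZNF277 -0.52, ZNF207 -0.52, ZNF385B -0.48, ZNF385C -0.48, ZNF408 -0.44, ZNF143 -0.43, ZNF687 -0.43, ZNF451 -0.42, ZNF81 -0.39, SETDB1 -0.35, ZNF280D -0.35, ZNF292 -0.28, ZNF609 -0.27, ZNF24 -0.24, ZNF518A -0.22, ZNF536 -0.20, ZNF488 -0.20, ZNF638 -0.19, ZNF239 -0.18, ZNF280C -0.18, ZNF711 -0.11, ZNF462 -0.10, ZNF512 -0.087, ZNF407 -0.078, ZNF346 -0.061 and ZNF652 -0.052. Calls of 17 named genes ended with the sign kept under the rod list's mean (ZNF205 0.38, ZNF239 0.046, ZNF280B 0.28, ZNF280C 0.055, ZNF346 0.17, ZNF407 0.15, ZNF462 0.13, ZNF485 0.28, ZNF512 0.14, ZNF518A 0.012, ZNF524 0.44, ZNF536 0.027, ZNF581 0.36, ZNF638 0.038, ZNF652 0.18, ZNF711 0.12 and ZNF750 0.51) and of 12 under its median (DNMT3B 0.25, ZNF205 0.15, ZNF276 0.17, ZNF280B 0.052, ZNF318 0.049, ZNF354B 0.062, ZNF485 0.046, ZNF524 0.21, ZNF581 0.13, ZNF699 0.14, ZNF750 0.28 and ZNF784 0.16). Under both, 14 uncalled genes were called lower, at -0.82 to -0.40 under the mean (ZNF106, ZNF148, ZNF385A, ZNF385D, ZNF395, ZNF410, ZNF516, ZNF518B, ZNF526, ZNF592, ZNF598, ZNF644, ZNF704 and ZNF827). The test against 1.5-fold ended 42 calls of named genes. The library median gave ZNF106 0.046, ZNF395 0.046 and ZNF644 0.066, and quantile normalization ZNF410 0.017 and ZNF526 0.11. Quantile normalization gained calls for ZNF385C (0.52), ZNF488 (0.80) and ZNF687 (0.24), besides ZNF106 and ZNF385A. The library median gained them for ZNF385B (0.22) and ZNF687 (0.26), besides ZNF207. Quantile normalization also moved called changes by over 1.5 times for ZNF213 (-0.42), ZNF462 (0.32), ZNF485 (1.02), ZNF638 (0.26) and ZNF865 (-0.28), and adding 1 CPM that of ZNF750 (0.57). Changes without 1 library crossed 0 for 6 uncalled genes, from -0.078 to 0.024 for ZNF106, -0.17 to 0.025 for ZNF148, -0.032 to 0.11 for ZNF281, -0.023 to 0.30 for ZNF408, -0.074 to 0.076 for ZNF644 and -0.090 to 0.17 for ZNF804B. The causes were not tested. With a block, ZNF385D (limma adjusted p = 0.0467) and ZNF704 (limma adjusted p = 0.0248) gained a call and ZNF219 (limma adjusted p = 0.0596) and ZNF280D (limma adjusted p = 0.0536) lost theirs, the other named genes keeping theirs. Low reads limit the members under 100 reads, and classes by protein sequence were not run.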
